A study of Mus musculus with 67 samples.

Results

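The accessible chromatin of p0-1 neural progenitors (NPs) was compared with that of pMN NPs at day 5 of the directed differentiation of mouse embryonic stem (ES) cells. The members were the samples labelled day 5 and p0-1 (6 samples) or day 5 and pMN (5 samples), 11 of the 67 samples of the series. All came from 1 ES cell line, HM1, whose cells passed through neuromesodermal progenitors (NMPs) at day 3 and then received retinoic acid with 0, 10, 100 or 500 nM of SAG, an agonist of Smoothened that stands in for the morphogen Shh. The p0-1 samples were sorted from 0 nM SAG (3 replicates) and 10 nM SAG (3 replicates), and the pMN samples from 100 nM SAG (3 replicates) and 500 nM SAG (2 replicates, numbered 2 and 3). No SAG concentration was shared by the groups, so cell type and SAG concentration cannot be told apart in this comparison. Replicates of a condition are independent differentiations, but the replicate numbers recur across conditions. Deviations from the condition means correlated at 0.398 to 0.752 between samples of different conditions with the same number. The samples of a type are therefore not all independent of each other, and the main test had no term for this pairing.

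Cells were fixed with formaldehyde, exposed to the Tn5 transposase, which inserts adapters into open DNA, and then stained for transcription factors inside the cell and sorted, an assay named CaTS-ATAC. p0-1 NPs were gated as SOX2+ and PAX6+ without NKX6.1, and pMN NPs as OLIG2+ after cells that also held NKX2.2 were left out. Each sample held between 19537238 and 28424039 reads in the consensus elements, with p0-1 samples from 19537238 to 28424039 and pMN samples from 19796834 to 26704636. Values are read counts normalized by size factors, recovered from the variance-stabilized log2 values (VST) that the authors deposited for 111638 elements. The Pearson correlation of VST values ranged from 0.959 to 0.986 between replicates of a condition (10 pairs), from 0.947 to 0.990 between SAG concentrations of a type (15 pairs) and from 0.827 to 0.922 between the types (30 pairs). These correlations are across elements, which are not independent replicates. In a sorted bulk sample, a lower count in every cell and an open element in fewer cells cannot be told apart, and accessibility is not expression.

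In the neural tube, Shh spreads from the notochord and floor plate, and progenitors take on identities in stripes along the dorsoventral axis. p0 and p1 lie dorsal to p2, pMN and p3, and give rise to V0 and V1 interneurons, whereas pMN gives rise to motor neurons and later to oligodendrocytes. Cross-repression between transcription factors sets the boundaries: OLIG2 and NKX6.1 mark pMN, while DBX1, which directs the V0 fate, is kept out of the ventral domains. Genes such as Ptch1, the Shh receptor, and Gli1, a transcriptional activator, are targets of the pathway itself.

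The elements on which the comparison turned lay mostly outside promoters, and 9 of them are shown as the 300 bases about the center of the element, which is not a summit. They were read from the plus strand of the GRCm38 (mm10) genome of RefSeq and overlapped no annotated exon. Capitals mark matches on either strand to CAGATG (reverse complement CATCTG) and to the palindrome CAGCTG, both E-box hexamers that bHLH factors can bind. They also mark TGGGTGG (reverse complement CCACCCA), the core of the GLI motif, and TGACCT (reverse complement AGGTCA), a half-site of nuclear receptors. The first 7 were higher in pMN and are shown because they stood near genes of pMN or neurogenic identity, near Ptch1, or had the largest difference.
Elavl3 intron, chr9:22035796-22036095: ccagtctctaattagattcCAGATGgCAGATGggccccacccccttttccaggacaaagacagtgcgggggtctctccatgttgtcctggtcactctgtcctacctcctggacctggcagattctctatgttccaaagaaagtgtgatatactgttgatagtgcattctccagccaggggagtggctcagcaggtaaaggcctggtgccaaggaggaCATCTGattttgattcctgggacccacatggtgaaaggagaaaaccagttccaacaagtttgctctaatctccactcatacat
Gadd45g upstream, chr13:51833693-51833992: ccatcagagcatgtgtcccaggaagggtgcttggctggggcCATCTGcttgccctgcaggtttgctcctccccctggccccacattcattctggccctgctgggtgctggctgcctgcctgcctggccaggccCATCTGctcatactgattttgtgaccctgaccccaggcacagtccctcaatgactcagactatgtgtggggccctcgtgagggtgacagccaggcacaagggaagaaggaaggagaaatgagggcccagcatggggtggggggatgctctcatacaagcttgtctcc
Lhx4 upstream, chr1:155747042-155747341: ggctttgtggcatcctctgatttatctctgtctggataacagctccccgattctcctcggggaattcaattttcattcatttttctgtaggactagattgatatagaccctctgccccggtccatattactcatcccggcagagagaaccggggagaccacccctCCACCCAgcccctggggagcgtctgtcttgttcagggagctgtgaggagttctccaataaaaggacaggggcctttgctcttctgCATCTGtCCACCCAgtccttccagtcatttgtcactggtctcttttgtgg
Mnx1 upstream, chr5:29485019-29485318: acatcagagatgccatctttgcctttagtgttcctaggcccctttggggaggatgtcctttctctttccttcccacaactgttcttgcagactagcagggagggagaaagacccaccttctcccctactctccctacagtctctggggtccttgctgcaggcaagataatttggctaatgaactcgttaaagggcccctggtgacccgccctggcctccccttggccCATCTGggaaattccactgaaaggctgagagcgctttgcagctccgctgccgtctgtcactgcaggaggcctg
1700024I08Rik intron, near Ptch1, chr13:63719804-63720103: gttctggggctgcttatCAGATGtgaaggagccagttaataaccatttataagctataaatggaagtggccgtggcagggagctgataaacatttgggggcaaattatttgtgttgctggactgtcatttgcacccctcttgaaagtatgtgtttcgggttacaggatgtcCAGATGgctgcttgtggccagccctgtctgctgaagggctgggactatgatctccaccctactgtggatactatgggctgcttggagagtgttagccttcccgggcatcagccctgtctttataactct
Nkx2-9 upstream, chr12:56621301-56621600: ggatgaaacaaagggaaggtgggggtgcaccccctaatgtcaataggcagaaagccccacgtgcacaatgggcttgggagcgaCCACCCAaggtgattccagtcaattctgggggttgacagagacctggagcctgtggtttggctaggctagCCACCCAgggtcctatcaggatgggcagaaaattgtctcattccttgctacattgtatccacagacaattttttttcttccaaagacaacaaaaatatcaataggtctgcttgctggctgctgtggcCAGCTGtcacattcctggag
Olig2 downstream, chr16:91234638-91234937: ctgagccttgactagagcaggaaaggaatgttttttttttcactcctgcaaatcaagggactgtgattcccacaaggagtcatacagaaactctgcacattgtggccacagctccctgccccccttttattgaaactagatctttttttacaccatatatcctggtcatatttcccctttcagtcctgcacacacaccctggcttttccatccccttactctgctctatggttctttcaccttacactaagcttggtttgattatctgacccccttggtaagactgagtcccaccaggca
The other 2 were higher in p0-1, the element with the largest difference in that direction and the strongest element near Dbx1.
Jak2 upstream, chr19:29216308-29216607: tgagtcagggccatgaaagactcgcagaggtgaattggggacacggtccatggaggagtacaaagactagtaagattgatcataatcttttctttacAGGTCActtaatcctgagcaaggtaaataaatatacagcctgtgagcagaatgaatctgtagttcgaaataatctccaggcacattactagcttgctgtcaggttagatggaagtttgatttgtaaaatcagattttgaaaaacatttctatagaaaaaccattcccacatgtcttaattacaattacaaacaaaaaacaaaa
Dbx1 upstream, chr7:49696466-49696765: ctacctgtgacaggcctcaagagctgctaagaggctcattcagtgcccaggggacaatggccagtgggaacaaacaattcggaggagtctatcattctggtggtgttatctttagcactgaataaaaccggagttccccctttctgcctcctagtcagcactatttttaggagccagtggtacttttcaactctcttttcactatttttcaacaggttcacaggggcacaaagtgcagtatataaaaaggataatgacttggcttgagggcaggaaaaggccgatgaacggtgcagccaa
The Elavl3 window held CAGATG 3 times, the Gadd45g and 1700024I08Rik windows 2 times each and the Lhx4 and Mnx1 windows 1 time each. TGGGTGG was found 2 times in the Lhx4 window and 2 times in the Nkx2-9 window, which also held CAGCTG. The Jak2 window held TGACCT 1 time. No match to these 4 motifs was found in the Olig2 and Dbx1 windows, which says only that these letters are not in these 300 bases.

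The comparison asks which regulatory elements differ between the most dorsal NP type of the series and the motor neuron progenitors. Of 31863 elements with a mean above 100 normalized counts over the 11 samples, 628 were called, 1.97% of those tested, with 491 higher in pMN (1.54%) and 137 higher in p0-1 (0.43%). An element was called where the adjusted p of limma's moderated test on VST values (two-sided, Benjamini-Hochberg over all elements tested) was under 0.01 and the mean normalized counts differed by a log2 ratio, pMN over p0-1, above 2 in size. Without p0-1 replicate 3 at 0 nM, 90 elements were higher in p0-1. The median log2 ratio was 2.35 over the elements higher in pMN, -2.31 over those higher in p0-1 and -0.09 over all elements tested. At a log2 ratio above 1 the calls numbered 3604 (11.3%), with 2187 higher in pMN (6.86%) and 1417 higher in p0-1 (4.45%). The samples of the types did not overlap in 491 of 491 elements higher in pMN and 136 of 137 higher in p0-1, against 8594 of 31863 (27.0%) over all elements tested. The calls were made on these same samples, so this separation is favored by the choice and nothing is read from it.

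**Figure D1:**
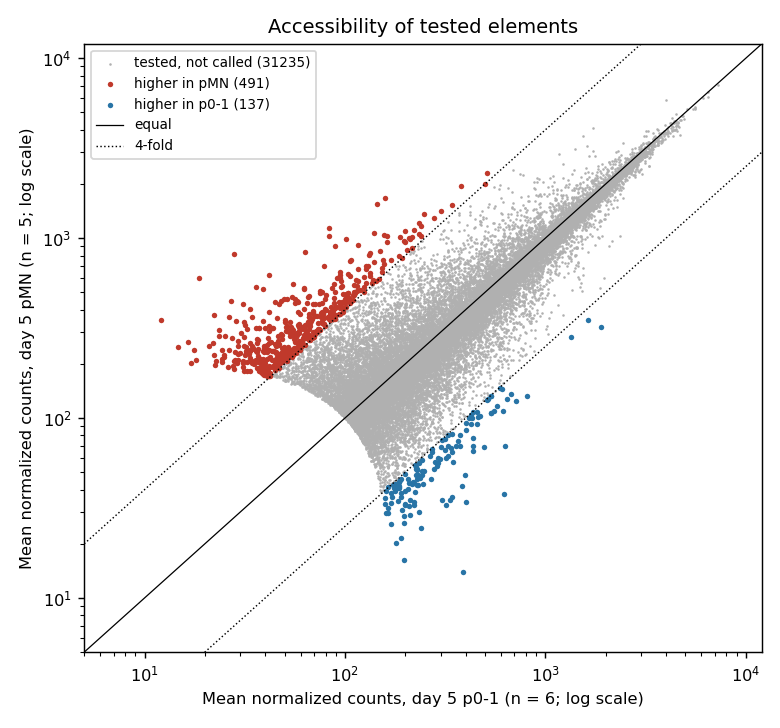
Mean normalized counts of each tested element in day 5 p0-1 (x axis, 6 samples) and day 5 pMN (y axis, 5 samples), both on log scales, with the 491 elements higher in pMN in red, the 137 higher in p0-1 in blue and the others in gray. The solid line marks equal means and the dotted lines a 4-fold difference, and the red points outnumber the blue.

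Called elements were distal. Only 5 of 6877 tested elements annotated as promoter-TSS were called (0.0727%), against 279 of 11143 in introns (2.50%), 323 of 9725 in intergenic DNA (3.32%), 14 of 3597 in exons (0.389%) and 7 of 521 at transcription termination sites (1.34%). Of the elements higher in pMN, 236 were intronic and 235 intergenic, and of those higher in p0-1, 43 and 88. The median distance to the nearest TSS was 46248 bp for elements higher in pMN, 64420 bp for those higher in p0-1 and 9443 bp for all tested. Median GC content was 48.0%, 45.8% and 52.3% in the same order, and median width 1134, 994 and 1334 bp. The 5 called promoters, named because they were so few, were those of Crp, 6430562O15Rik, Eya2 and Mobp, higher in pMN, and Cyp2c39, higher in p0-1. Eya2, which encodes a transcriptional coactivator, had 36.2 ± 8.89 (SD, n = 6) normalized counts in p0-1 and 237 ± 32.2 (SD, n = 5) in pMN, although its annotated distance to the TSS was 25075 bp.

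Of 64 tested elements nearest to 11 genes of pMN and motor neuron identity, 14 were called, each higher in pMN (21.9% of the list, against 1.97% of all elements). At a log2 ratio above 1, 29 were higher in pMN and 1 in p0-1 (46.9%, against 11.3% of all elements). The latter lay in an intron of Nkx6-2 (151 in p0-1 and 50.5 in pMN on average, log2 ratio -1.58, limma adjusted p = 0.000191). For the list the median log2 ratio was 0.76. Called elements lay by Olig2, Olig1, Nkx6-1, Lhx3, Lhx4 and Mnx1, and none of the 6 tested elements of Nkx6-2, the 4 of Isl1, the 3 of Isl2 or the 7 of Lmo4 was called. The genes of the list were chosen for this identity with results of these data known.

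Olig2 encodes the bHLH repressor by which pMN NPs were sorted. The intergenic element 9237 bp downstream of its TSS (chr16:91231830-91237744) held between 32.5 and 43.7 normalized counts in the 6 p0-1 samples, with a median of 39.5. The 3 pMN samples at 100 nM held 382, 340 and 788 (replicates 1, 2 and 3), and those at 500 nM 407 and 693 (replicates 2 and 3). The groups were far apart, and the lowest pMN sample exceeded every p0-1 sample by several times. The difference was 13.4-fold, a log2 ratio of 3.74, with a VST difference of 3.31 ± 0.20 (SE) and a limma adjusted p of 9.48e-08. In its intron, 742 bp from the TSS, Olig2 had 381 ± 48.8 (SD, n = 6) in p0-1 and 1952 ± 116 (SD, n = 5) in pMN (log2 ratio 2.36, limma adjusted p = 3.47e-09). This element was already open in p0-1, unlike the downstream one.

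Called elements clustered in the interval that holds Olig2 and Olig1. Within chr16:91166717-91337806, a span of 171 kb, 7 elements were called with no gap over 100 kb between neighbours, all higher in pMN, the largest such group among the called elements. Their nearest genes were Olig2 (4 elements), Olig1 (2) and Ifnar2 (1). Olig1 encodes a paralog of OLIG2. Its downstream element (chr16:91297498-91298284) held 43.3 to 60.6 in the 3 p0-1 samples without SAG, 109 to 119 in the 3 at 10 nM and 1092, 1172 and 1236 in pMN at 100 nM, with 1005 and 1213 at 500 nM. This is a 13.7-fold difference (log2 ratio 3.78, VST difference 3.68 ± 0.22 SE, limma adjusted p = 9.85e-08). The p0-1 samples fell into 2 levels by SAG concentration, both below every pMN sample, and the 10 nM samples exceeded those without SAG (log2 ratio 1.16, limma adjusted p = 0.00206). Outside the interval, the elements within 300 kb of the Olig2 start had log2 ratios near 0.

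**Figure D2:**
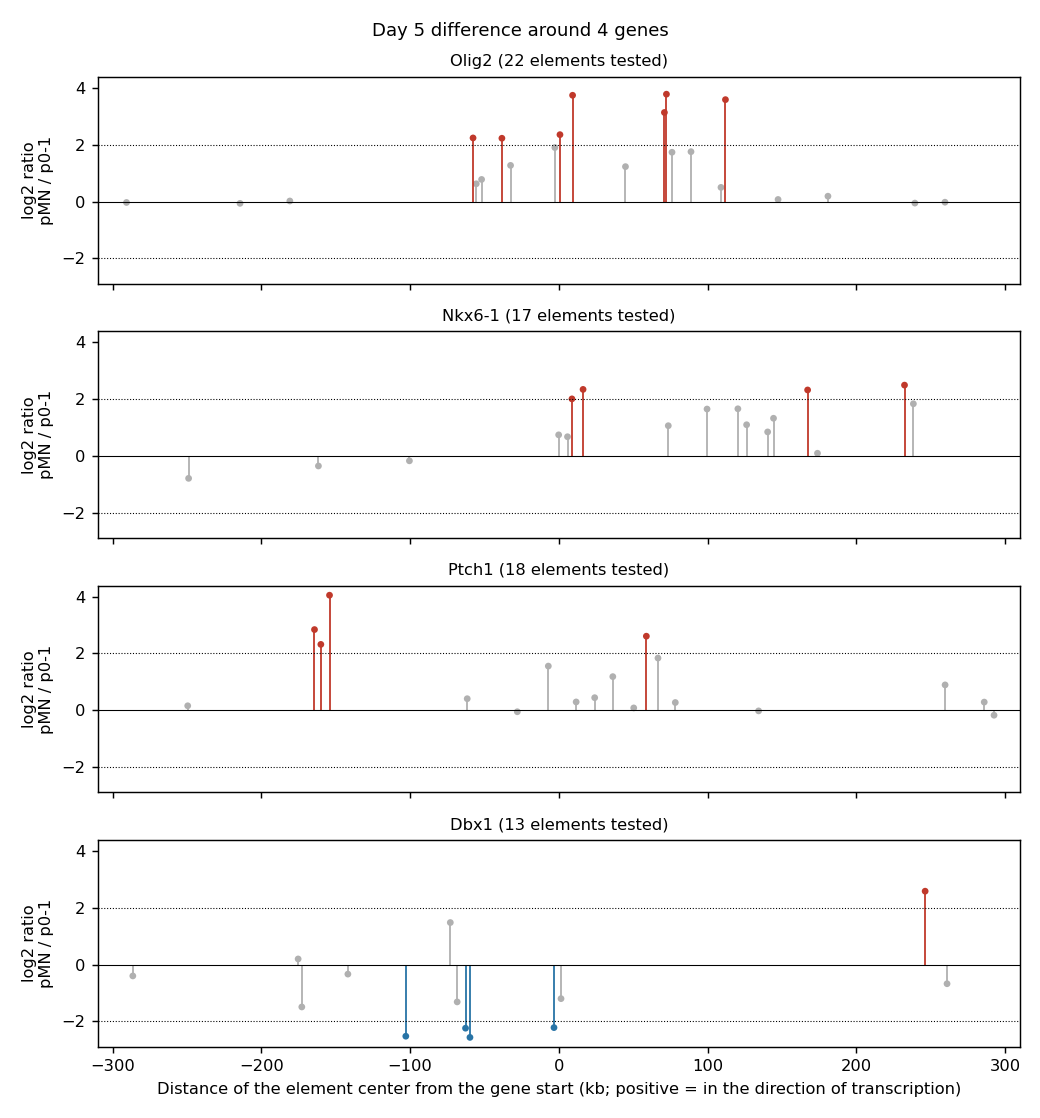
Log2 ratio of mean normalized counts, pMN over p0-1, for the tested elements within 300 kb of the starts of Olig2 (22 elements), Nkx6-1 (17), Ptch1 (18) and Dbx1 (13), by the distance of the element center from the start in kb. Called elements are red where higher in pMN and blue where higher in p0-1, the others gray, and the dotted lines mark log2 ratios of 2 and -2. The 7 called elements around Olig2 are red and 4 of the 5 around Dbx1 are blue.

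Nkx6-1 encodes the homeodomain protein whose absence defined the p0-1 gate. Of 16 elements annotated to it, 4 were called and 12 had a log2 ratio above 1, all higher in pMN. The largest was intergenic, 232438 bp downstream of the TSS (chr5:101431512-101433035). It held 51.5 to 144 in p0-1 with a median of 100.5, and 598, 631 and 567 in pMN at 100 nM and 477 and 414 at 500 nM, a 5.63-fold difference (limma adjusted p = 2.36e-06). The groups did not overlap. Its promoter differed less, with 1351 ± 205 (SD, n = 6) in p0-1 and 2259 ± 39.5 (SD, n = 5) in pMN (log2 ratio 0.74, limma adjusted p = 1.94e-05). The Nkx6-1 promoter was therefore open in cells sorted for lack of the protein.

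Of the LIM and homeodomain factors of motor neurons, Lhx3 had 1 of 3 elements called, Lhx4 2 of 6 and Mnx1 1 of 4. Lhx3, which with ISL1 specifies motor neurons, had an intergenic element (chr2:26175047-26175846) at 29.5 to 70.8 in p0-1, with a median of 53.0. In pMN the same element held 557, 459 and 513 at 100 nM and 330 and 447 at 500 nM (9.29-fold, limma adjusted p = 1.31e-07). The Lhx4 element 5164 bp upstream (chr1:155746946-155747436), whose sequence is given above, held 23.7 to 76.8 in p0-1 and 373, 292 and 417 in pMN at 100 nM, with 177 and 333 at 500 nM. Lhx4 is a close relative of Lhx3, and 4 called elements lay within 107 kb around it and Qsox1. Mnx1, which encodes HB9, a factor that consolidates motor neuron fate, had an element 6698 bp upstream (chr5:29484063-29486273) at 28.3 to 38.3 in p0-1 and 284, 234 and 316 at 100 nM and 134 and 331 at 500 nM in pMN. The 500 nM replicate 2 was the lowest pMN sample at the Lhx3, Lhx4 and Mnx1 elements and still lay above every p0-1 sample. Log2 ratios were 2.99 for Lhx4 (limma adjusted p = 2.60e-06) and 2.96 for Mnx1 (limma adjusted p = 4.87e-07).

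**Figure D3:**
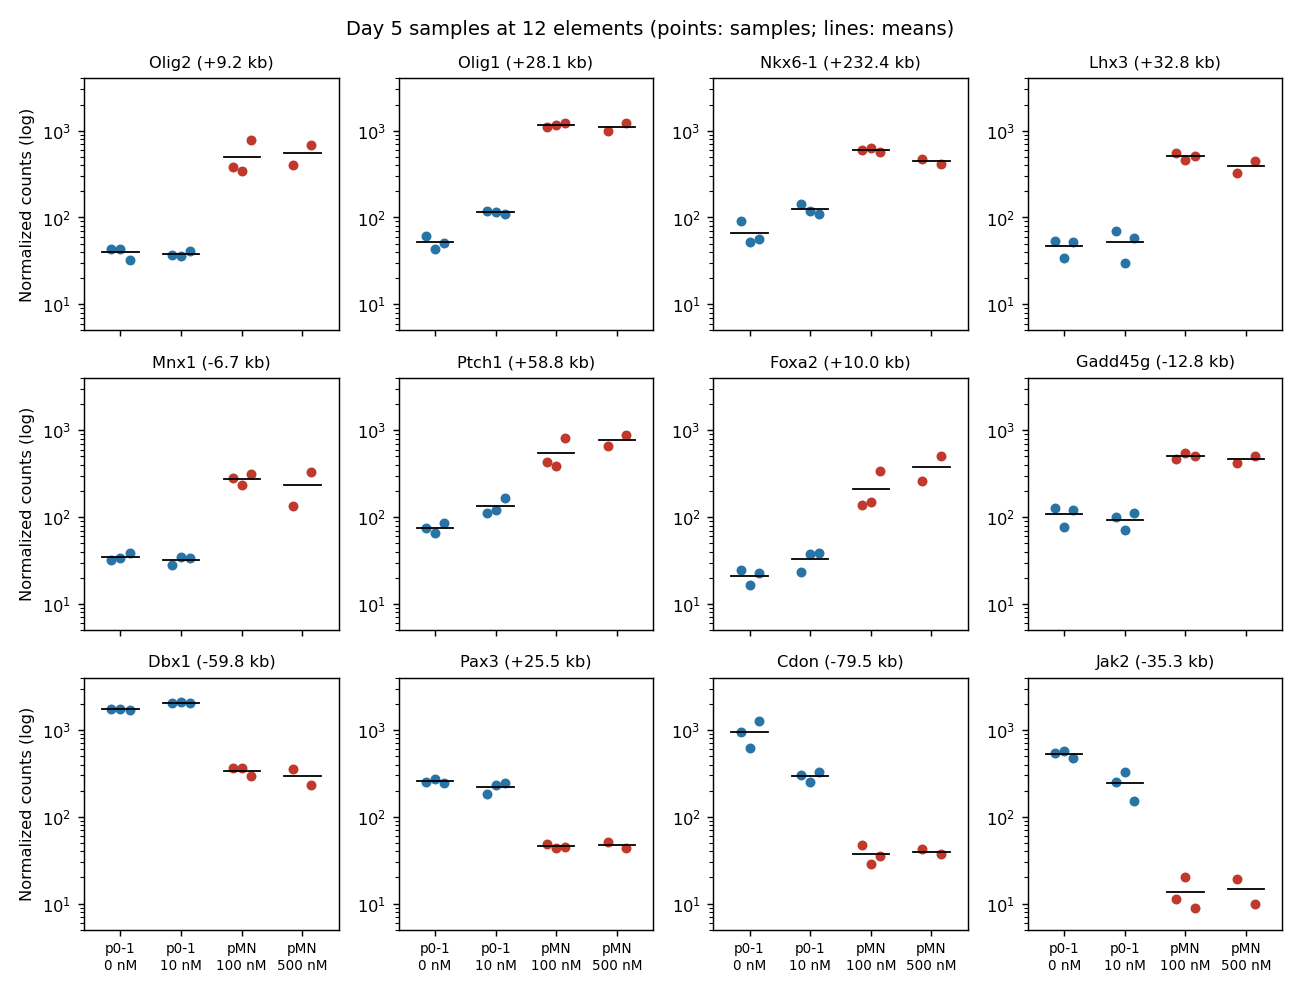
Normalized counts (log scale) in each day 5 sample of p0-1 at 0 and 10 nM SAG (blue) and pMN at 100 and 500 nM SAG (red) at 12 elements, named by their annotated gene and the distance to its TSS in kb. Points are samples and lines are means of a condition. No p0-1 sample overlaps a pMN sample, and at Cdon and Jak2 the samples at 0 nM lie above those at 10 nM. The elements were called on these samples, so the separation of the types is built in.

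Elements of p0-1 identity genes differed in both directions. Of 58 tested elements nearest to 10 genes, 2 were called higher in p0-1, both of Dbx1, and 1 higher in pMN, of Sp8. These were 5.17% of the list, against 1.97% of all elements. With a log2 ratio above 1, 9 were higher in p0-1 and 3 in pMN (20.7%, against 11.3% of all elements). The median log2 ratio was -0.31. The Dbx1 element 59780 bp upstream (chr7:49696204-49697027) was the strongest, with 1732, 1765 and 1706 in p0-1 without SAG and 2061, 2110 and 2051 at 10 nM. In pMN it held 363, 364 and 295 at 100 nM and 358 and 231 at 500 nM, a 5.91-fold lower level (VST difference -2.53 ± 0.11 SE, limma adjusted p = 1.29e-08). The types were widely separated, and within p0-1 every sample at 10 nM lay above every sample without SAG. In the span chr7:49639038-49740163 upstream of Dbx1, 4 elements were called, all higher in p0-1 and the only group of 3 or more such elements within gaps of 100 kb. Nearest to the start of Dbx1 itself, 1454 bp into the gene, the level was 2088 ± 217 (SD, n = 6) in p0-1 and 909 ± 18.9 (SD, n = 5) in pMN (log2 ratio -1.20, limma adjusted p = 6.10e-08), which passed the test of p but not the ratio of a call. For Dbx2, a paralog, the nearest element held 286 ± 30.3 and 281 ± 31.1 (log2 ratio -0.03, limma adjusted p = 0.854), with log2 ratios of -1.27 to -0.03 over its 6 tested elements.

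Sp8, a zinc finger factor counted here among the p0-1 genes, had 1 called element, 16352 bp upstream and higher in pMN, with 62.6 ± 26.0 (SD, n = 6) in p0-1 and 525 ± 81.5 (SD, n = 5) in pMN (log2 ratio 3.07, limma adjusted p = 6.19e-07). Its element nearest the TSS had a log2 ratio of -0.02. Irx3, a homeodomain repressor of Olig2, had 0 called of 18 tested elements, with log2 ratios from -1.83 to 1.52. Pax6, which encodes a marker of the p0-1 gate, had a log2 ratio of -0.16 at its promoter, with 3336 ± 152 (SD, n = 6) and 2991 ± 118 (SD, n = 5), and Sox2 had 0.27.

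Most elements nearest to the starts of the marker genes differed by less than 2-fold. Of the 14 taken for the rule, only the Olig2 element was called, and 8 had a log2 ratio below 0.5 in size. Neurog2, the proneural gene of motor neurons and other ventral neurons, had 2247 ± 303 in p0-1 (SD, n = 6) and 3002 ± 290 in pMN (SD, n = 5), a log2 ratio of 0.42 with a limma adjusted p of 0.0019. For Nkx6-2, an Nkx6 paralog, the log2 ratio was 0.32 with a limma adjusted p of 0.075.

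The dorsal neural tube genes had the lowest median of the lists, a log2 ratio of -0.45 against -0.09 over all elements tested. Over 70 tested elements nearest to 17 genes, 13 were higher in p0-1 and 4 in pMN at a log2 ratio above 1 (24.3%, against 11.3% of all elements, 4.45% higher in p0-1 and 6.86% in pMN), and 2 were called in each direction (5.71%, against 1.97%). The largest on the p0-1 side was in an intron of Pax3, a paired box gene of dorsal progenitors (chr1:78171170-78172136), at 181 to 272 in p0-1 with a median of 247 and 48.3, 44.1 and 45.3 in pMN at 100 nM and 50.7 and 43.3 at 500 nM (log2 ratio -2.36, limma adjusted p = 3.39e-08). Wnt3a, a roof plate signal, had an intronic element whose p0-1 level differed between the SAG concentrations: 922, 558 and 1047 at 0 nM, 211, 247 and 242 at 10 nM, and 120 to 141 in pMN. Its log2 ratio of -2.01 (limma adjusted p = 0.00402) lay at the limit of a call (-1.71 without p0-1 replicate 3 at 0 nM), and the 0 nM samples exceeded those at 10 nM (log2 ratio, 10 over 0 nM, -1.85, limma adjusted p = 0.00124). The Wnt3a call was also lost without p0-1 replicate 1 at 0 nM (log2 ratio -1.79) and without pMN replicate 2 or 3 at 100 nM or replicate 3 at 500 nM (limma adjusted p = 0.0102, 0.0111 and 0.0103). Msx1 (log2 ratio 2.12) and Olig3 (2.02) had a called element higher in pMN, although both genes are known for dorsal progenitors. The Olig3 call was lost without p0-1 replicate 3 at 0 nM (1.93), replicate 2 at 0 nM (1.94) or pMN replicate 1 at 100 nM (1.96). At the Msx1 element p3 NPs of day 5 reached 258 ± 42.1 (SD, n = 5), more than the 195 ± 69.0 (SD, n = 5) of pMN.

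Among elements of the Hedgehog pathway, 3 were called higher in pMN and 1 in p0-1 of 57 tested (7.02%, against 1.97% of all elements), and 10 and 6 had a log2 ratio above 1 (28.1%, against 11.3%). Ptch1, the Shh receptor and a direct target, had an element over the 3′ end of the gene (chr13:63503435-63510354) with 74.0, 66.0 and 84.9 in p0-1 at 0 nM, 110, 122 and 166 at 10 nM, 428, 386 and 812 in pMN at 100 nM and 660 and 879 at 500 nM (6.09-fold, limma adjusted p = 5.43e-06). The condition means followed the order of the SAG concentrations, and p3 held 792 ± 220 (SD, n = 5). Upstream of Ptch1, 6 more elements higher in pMN were called between 146 and 507 kb from the boundary of the gene, annotated to 1700024I08Rik and Hsd17b3. The largest of them (chr13:63719030-63720877) held 16.2 to 36.4 in p0-1 and 327, 326 and 440 in pMN at 100 nM and 533 and 610 at 500 nM, 16.6-fold apart (limma adjusted p = 4.17e-08). Whether these elements act on Ptch1 was not tested.

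Gli1 near its TSS held 937 to 1011 in p0-1 at 0 nM, 2107 to 2424 at 10 nM and 3080 to 3521 in pMN, so the p0-1 samples again split by SAG. The difference between the types was a log2 ratio of 1.01 (limma adjusted p = 0.00273), and that between 10 and 0 nM within p0-1 was 1.20 (limma adjusted p = 8.34e-05). Hhip, which binds and sequesters Hedgehog ligands, had a called element at 76.7 ± 23.9 (SD, n = 6) in p0-1 and 337 ± 19.1 (SD, n = 5) in pMN, and Hhat, the acyltransferase of Hedgehog ligands, an intronic one at 34.2 ± 15.8 and 202 ± 31.4. Gli3, the main repressor of the pathway, differed by a log2 ratio of -0.34 at its promoter and had 3 of 8 elements higher in p0-1 at a log2 ratio above 1.

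Cdon, a co-receptor of Shh, had the strongest difference of the list. Its intergenic element 79525 bp upstream (chr9:35371997-35373105) held 937, 617 and 1270 in p0-1 at 0 nM, 305, 252 and 328 at 10 nM, and 28.5 to 46.8 in pMN. Every p0-1 sample lay above every pMN sample, and the p0-1 samples at 10 nM lay below those without SAG (log2 ratio -1.67, limma adjusted p = 0.00487). The log2 ratio between the types was -4.02 (VST difference -3.41 ± 0.36 SE, limma adjusted p = 7.73e-06).

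The largest differences over all elements were led by Nkx2-9, a homeobox gene of the most ventral progenitors. The intergenic element 8166 bp upstream (chr12:56621016-56621884) held 9.87, 8.24 and 11.7 in p0-1 at 0 nM, 24.3, 25.4 and 32.2 at 10 nM, 370, 397 and 622 in pMN at 100 nM and 742 and 873 at 500 nM. It was 32.3-fold higher in pMN (VST difference 4.35 ± 0.27 SE, limma adjusted p = 1.31e-07), and p3 held 589 ± 145 (SD, n = 5), close to pMN. The 5 elements that followed were nearest to Gm815 (log2 ratio 4.88), 2810032G03Rik (4.87), Mir297c (4.07), Has2 (4.07) and 1700024I08Rik (4.05). The 2810032G03Rik element was low in p3, at 36.6 ± 6.30 (SD, n = 5) against 352 ± 35.7 (SD, n = 5) in pMN. On the p0-1 side the largest was nearest to Jak2, which encodes a kinase of cytokine receptors, at 541, 573 and 477 at 0 nM, 253, 329 and 153 at 10 nM and 8.88 to 20.2 in pMN (27.8-fold, log2 ratio -4.80, limma adjusted p = 5.45e-07). It was followed, after Cdon, by elements of Atp8b4 (-3.60), Grin2a (-3.54), Anxa10 (-3.29) and 4930519L02Rik (-3.27).

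Markers of other cell types were checked as lists. For p3 and floor plate genes, 2 of 44 tested elements were called (4.55%, against 1.97% of all elements), both higher in pMN: the Nkx2-9 element above and 1 of 10 elements of Foxa2, the floor plate and p3 regulator (24.7, 16.5 and 22.5 at 0 nM, 23.3, 37.6 and 39.0 at 10 nM, 140, 149 and 345 in pMN at 100 nM and 262 and 501 at 500 nM, with 522 ± 162 in p3, SD, n = 5). At a log2 ratio above 1, 5 elements of this list were higher in pMN and 3 in p0-1 (18.2%, against 11.3% of all elements). The 3 were of Sim1 (-1.37), Foxa2 (-1.24) and Lmx1b (-1.16). The summed normalized counts of this list overlapped between the types, at 18323 to 20389 in p0-1 and 17742 to 20453 in pMN. For NMP and mesoderm genes 0 of 32 elements were called by limma, and 1 was higher in p0-1 at a log2 ratio above 1 (3.13%, against 11.3%). The sums of this list were 9436 to 10267 in p0-1 and 8185 to 8811 in pMN. For postmitotic neuron genes 1 of 34 was called (2.94%, against 1.97% of all elements), in an intron of Elavl3, an RNA-binding protein of neurons. It held 60.8 ± 20.7 (SD, n = 6) in p0-1 and 320 ± 38.7 (SD, n = 5) in pMN. At a log2 ratio above 1, 5 elements of this list were higher in pMN and 3 in p0-1 (23.5%, against 11.3%), the latter of Syt1 (-1.47) and Snap25 (-1.23 and -1.15). Sums over the neuron list did not overlap, at 9904 to 12778 in p0-1 and 13509 to 15286 in pMN, and nor did the NMP sums, which were lower in pMN. Other lists also had sums without overlap, in either direction. Those of proneural and Notch genes were 75783 to 89305 in p0-1 and 92521 to 101576 in pMN. For BMP and Wnt response genes they were 55824 to 58392 in p0-1 and 49607 to 53834 in pMN. The part of neurons in the differences was not tested.

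Of 121 tested elements of proneural and Notch genes, 3 were called, all higher in pMN (2.48%, against 1.97% of all elements), and 17 were higher in pMN and 5 in p0-1 at a log2 ratio above 1 (18.2% in both directions, against 11.3%). The called ones included elements of Hey2, a Notch target (139 ± 78.5 in p0-1, SD, n = 6, and 1073 ± 106 in pMN, SD, n = 5), and Gadd45g, a growth arrest gene (101 ± 23.4 and 491 ± 46.1). At the Hey2 element the p0-1 samples ranged from 65.8 to 86.7 at 0 nM and from 150 to 260 at 10 nM, and pMN from 930 to 1193. Glial and pan-progenitor genes had 2 called higher in pMN, of Nfia, a gliogenic factor (log2 ratio 2.30), and of the glutamate transporter gene Slc1a3 (2.35), and 1 higher in p0-1, in an intron of Sox6 (-2.39), of 89 tested. The calls were 3.37% of this list, against 1.97% of all elements. With a log2 ratio above 1, 6 were higher in pMN and 4 in p0-1 (11.2%, against 11.3% of all elements).

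Axon guidance genes were mixed, with 24 elements higher in pMN and 19 in p0-1 of 188 at a log2 ratio above 1 (22.9%, against 11.3% of all elements), and 4 and 2 called (3.19%, against 1.97%). Calls were higher in pMN for Slit3 (log2 ratio 2.43), Epha5 (2.62) and Efnb2 (3.39 for the larger of 2), and higher in p0-1 for Slit2 (-2.61) and Epha7 (-2.23). Slit2 and Slit3 encode ligands of Robo receptors, and their called elements differed in opposite directions. The called Efnb2, Epha5 and Slit2 elements were between 623114 and 1695792 bp from the annotated TSS, so the gene is a label by proximity. Of the remaining lists, V0 and V1 interneuron genes had 0 of 43 elements called, the retinoic acid pathway 0 of 43 and classical cadherins 0 of 62. In the same order, 4, 2 and 5 were higher in pMN and 1, 1 and 3 in p0-1 at a log2 ratio above 1 and an adjusted p under 0.01 by limma. These were 11.6%, 6.98% and 12.9% of the lists, against 11.3% of all elements. BMP and Wnt response genes had 1 of 100 called (1.0%), of Bambi, a BMP pseudoreceptor (-2.65). Hox genes and cofactors had 1 of 88 (1.14%), of Meis1 (-2.04), against 1.97% of all elements. The Meis1 element was no longer called without pMN replicate 3 at 100 nM (-1.98) or replicate 2 at 500 nM (-1.85), or p0-1 replicate 3 at 0 nM (-1.83) or 10 nM (-1.97).

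**Figure D4:**
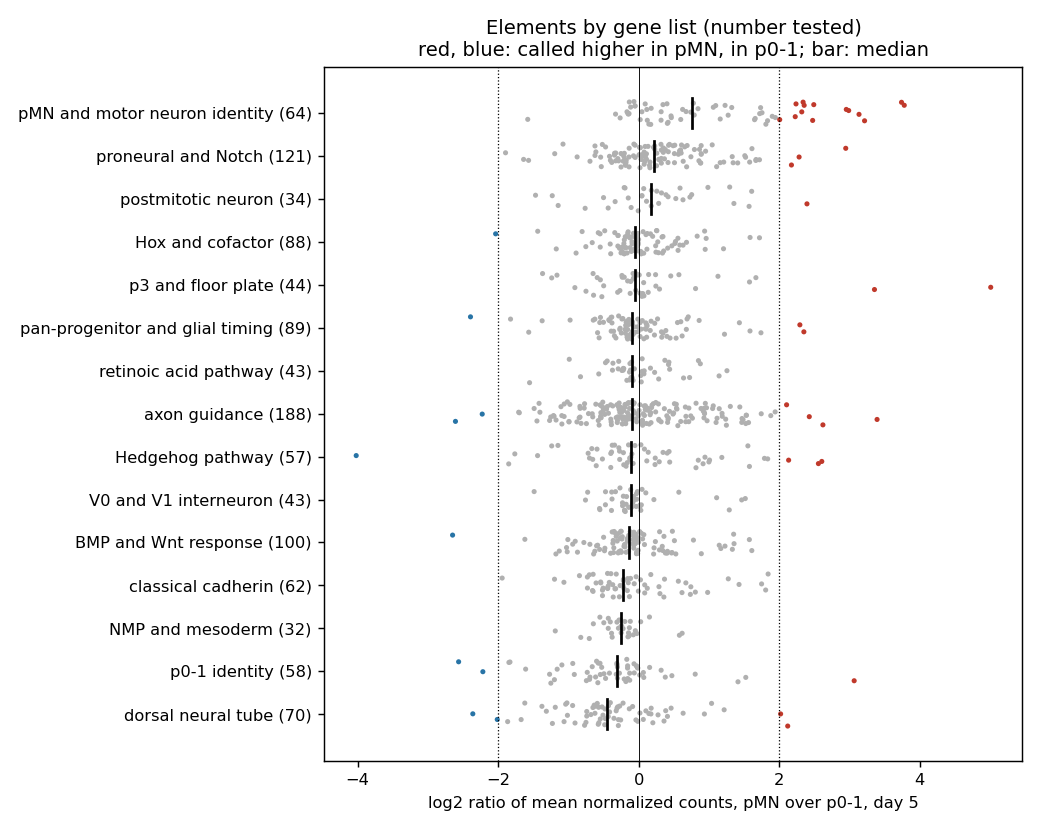
Log2 ratio of mean normalized counts, pMN over p0-1 at day 5, for each tested element of the 15 gene lists (points; the number tested is in parentheses), with the median of the list as a bar. Elements called higher in pMN are red and those called higher in p0-1 blue, and the dotted lines mark log2 ratios of -2 and 2. Among the 15 lists, that of pMN and motor neuron identity has the highest median, 0.76, and the dorsal list the lowest, -0.45.

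Both SAG concentrations of each type gave calls. In pairs of 1 p0-1 and 1 pMN condition, 1042 of 31988 elements were called between 0 and 100 nM (3.26%), 944 of 31667 between 0 and 500 nM (2.98%), 534 of 32051 between 10 and 100 nM (1.67%) and 561 of 31768 between 10 and 500 nM (1.77%). In the same order, 814, 606, 466 and 334 were higher in pMN and 228, 338, 68 and 227 higher in p0-1. These pairs share samples, and the 500 nM condition had 2 replicates. Without 1 of them, the pair of 0 and 500 nM gave 246 (without replicate 2) or 125 calls (without replicate 3).

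Within p0-1, 146 of 31863 elements differed between 10 and 0 nM SAG at a log2 ratio above 1 (0.458%), with 127 higher at 10 nM and 19 lower. Blocking on the replicate number gave 366 (1.15%), 296 higher and 70 lower. Without p0-1 replicate 1 or 3 at 10 nM the 146 fell to 20 and 27, without p0-1 replicate 1 or 2 at 0 nM to 83 and 67, and without pMN replicate 1 or 2 at 100 nM, which enter the estimate of the spread, to 74 and 84. Of the 491 elements higher in pMN, 366 had a higher mean at 10 than at 0 nM within p0-1, with a median log2 ratio of 0.30, and 27 were called without the block, and 66 higher and 1 lower with it. Of the 137 higher in p0-1, 29 had a higher mean at 10 nM, the median was -0.35, and 9 were called without the block, and 0 higher and 19 lower with it. Over all elements the median was 0.02. The share of all tested elements with a higher mean at 10 nM was not counted, so no excess is read from the 366 and 29. Within pMN, 0 of 31863 elements differed between 500 and 100 nM by limma, 886 had an unadjusted p under 0.05, and 3 were called with the block (0.00942%). The elements higher in pMN had a median log2 ratio, 500 over 100 nM, of -0.07, with 177 of 491 higher at 500 nM. For those higher in p0-1 the median was -0.25, with 30 of 137 higher, and over all elements it was -0.03. The share of all tested was not counted here either.

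p2 NPs, which lie between these types in the neural tube and were sorted from 10 and 100 nM SAG, shared a concentration with each. At the elements higher in pMN, the median of the element means at 10 nM was 61.1 in p0-1 and 215 in p2, and at 100 nM it was 148 in p2 and 306 in pMN. At the elements higher in p0-1 the medians were 233 and 138 at 10 nM, and 111 and 52.7 at 100 nM. The p2 samples played no part in the choice of these elements, whereas the p0-1 and pMN samples did. p2 had a mean between p0-1 and pMN in 464 of 491 elements higher in pMN and 136 of 137 higher in p0-1, against 19231 of 31863 of all tested. Called elements were chosen for p0-1 and pMN means far apart, which leaves more room between them than at other elements. Nothing is therefore read from the contrast of these counts with all tested. The p2 samples at 10 nM spread widely at the pMN elements, with medians of 260, 236 and 140.

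p3 NPs, the most ventral type, continued this order at the elements higher in p0-1, where the medians were 267 in p0-1, 128 in p2, 48.9 in pMN and 24.4 in p3, but not at those higher in pMN. The p3 mean lay below both p0-1 and pMN in 113 of the 491 elements higher in pMN, between them in 343 and above both in 35. Of the 137 elements higher in p0-1, 108 were lower in p3 than in both types, 27 lay between them and 2 above both. Over all 31863 elements tested, p3 lay below both in 11549, between them in 9341 and above both in 10973. The choice of elements with distant means affects these counts too. Over the elements higher in pMN, the median was 92.1 in p3 against 305 in pMN and 55.0 in p0-1. NMPs of day 3 had little signal at either group, with medians of 17.7 and 7.45, against 320 over all elements tested. Their mean was above 100 normalized counts in 49 of 491 and 9 of 137 elements, against 19957 of 31863 over all. Called elements were chosen for distant day 5 means and few were promoters, whereas all tested included many promoters. Nothing is therefore read from the contrast of NMPs with all tested.

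The difference between the types was tested in the samples of the other days. At day 4, with 6 samples of each type, 155 of 29762 elements were called (0.521%), 151 higher in pMN and 4 in p0-1. These included 70 of the 491 and 3 of the 137 elements of day 5, which is 11.6% of the day 5 calls and 47.1% of those at day 4, and 0 were called in the opposite direction. The day 4 means had the sign of day 5 in 482 of 491, 135 of 137 and, over all elements tested, 25026 of 31863 (78.5%), and the medians of the log2 ratio were 1.30 and -1.04. At day 6, with 5 p0-1 and 4 pMN samples, 964 of 32346 were called (2.98%), 727 higher in pMN and 237 in p0-1, among them 307 and 68 of the day 5 elements. These were 59.7% of the day 5 and 38.9% of the day 6 calls. The sign was that of day 5 in 491 of 491 and 137 of 137, and in 27580 of 31863 over all (86.6%), with medians of 2.22 and -2.48. Called elements were chosen for a large day 5 difference, whereas most tested elements had a small one, whose sign reverses more easily. Nothing is therefore read from the contrast of these signs with all tested.

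In a test of the change in the difference from day 4 to day 5, 1157 of 31863 elements passed (3.63%), and 1993 with the replicate block (6.25%). Among the 1157 were 239 elements higher in pMN and 51 higher in p0-1. They were chosen by the day 5 values that enter this test, so a larger difference at day 5 is favored by the choice and nothing is read from these counts. From day 5 to day 6, 0 elements passed by limma, with 1701 at an unadjusted p under 0.05. Over those higher in pMN, the median in pMN went from 121 at day 4 to 305 at day 5 and 402 at day 6, and in p0-1 from 48.2 to 55.0 and 82.3. Over those higher in p0-1, the median in p0-1 went from 59.3 to 267 and 215, and in pMN from 30.5 to 48.9 and 36.8. The day 5 values chose these elements, which favors a wide gap at day 5, so no time course is read from these medians. At Mnx1 the log2 ratio was -0.06 at day 4, 2.96 at day 5 and 3.23 at day 6, whereas at Nkx2-9 it was 4.84, 5.01 and 4.59.

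**Figure D5:**
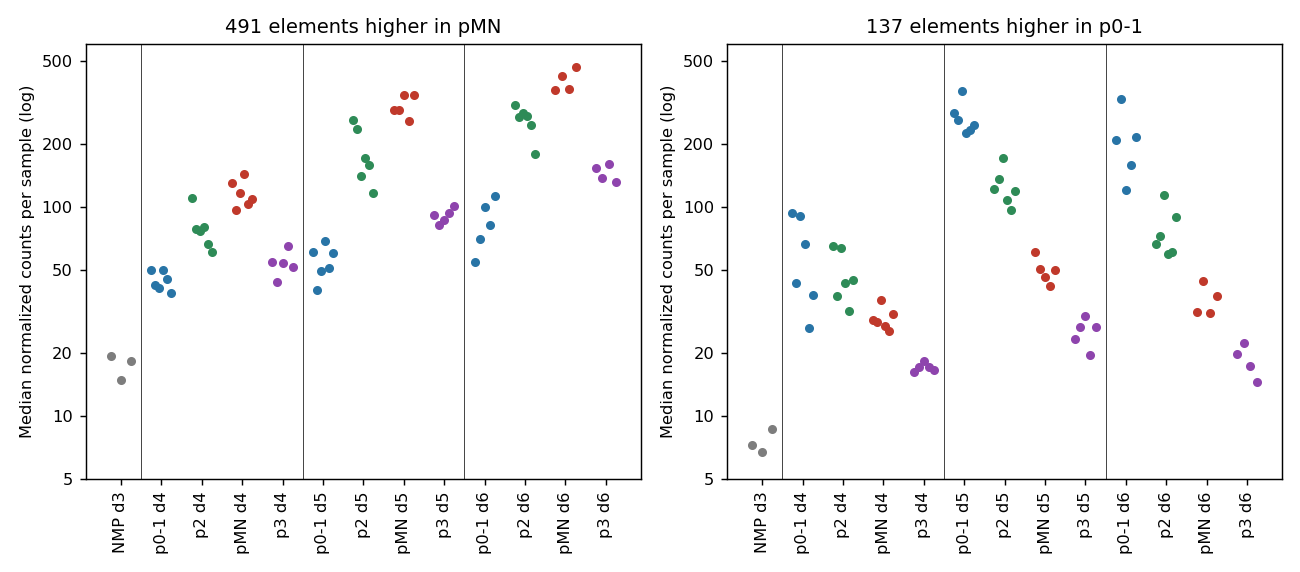
Median normalized counts (log scale) over the 491 elements higher in pMN at day 5 (left) and the 137 higher in p0-1 (right), with a point for each of the samples of NMP at day 3 and of p0-1, p2, pMN and p3 at days 4, 5 and 6. The day 5 p0-1 and pMN samples chose the elements, so their separation is built in, and the samples of days 4 and 6 played no part in the choice.

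The hexamer CAGATG was found in the central 300 bases of 49.1% of the elements higher in pMN, 12.4% of those higher in p0-1, 18.7% of all tested and 21.4% of the tested elements outside promoters. CAGCTG was in 32.2%, 18.2%, 19.4% and 20.7%, and CATATG, another E-box, in 6.31%, 3.65%, 3.29% and 3.81%. TGGGTGG was in 14.9%, 7.30%, 8.10% and 8.11%. ACAAAG, a SOX motif, was in 41.8%, 38.7%, 25.4% and 29.2%, TAATTA, a homeodomain core, in 9.57%, 8.76%, 5.66% and 6.77%, and TGACCT in 24.4%, 29.9%, 16.7% and 18.7%. Both strands were searched, and matches of different motifs may overlap. The shares are descriptions of sequence, with no test, and a match is not a bound site. Of the 7 motifs, CAGATG had the widest gap between the shares of the groups. Of the windows printed above it is in those of Elavl3, Gadd45g, 1700024I08Rik, Lhx4 and Mnx1, and absent from those of Nkx2-9 and Olig2, also higher in pMN, and of Jak2 and Dbx1.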

How the data were processed

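CaTS-ATAC was analysed in 11 samples, 6 of p0-1 and 5 of pMN, with the p2, p3, NMP and other-day samples for reference. The authors ran the nf-core/atacseq pipeline on mm10, called peaks with MACS, kept consensus peaks, counted the reads of each and deposited log2 values from the variance-stabilizing transformation of DESeq2, with a HOMER annotation. Replicates were not pooled. The transformation was inverted to normalized counts and reads. In each sample 100% of values below 1000 reads were whole, to within 3.60e-11 of a read. The depth was 19537238 to 28424039 reads in elements per sample, and the annotation was compared with GRCm38, in which 90.3% of promoter elements lay within 5000 bp of their gene.

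The VST values were tested with limma 3.58.1 in R 4.3.3, with a mean-variance trend and Benjamini-Hochberg adjustment, as linear models without covariates. Calls needed an adjusted p under 0.01, a log2 ratio of mean normalized counts above 2 in size (1 for SAG within a type) and a mean above 100 normalized counts over the samples compared. The days were compared by interaction terms on VST values over the elements tested at day 5, with an adjusted p under 0.01. The procedure was tested on simulated data with known changes. Fold changes are ratios of means, and the SE given is that of the VST difference. Tables and figures were made with Python 3.11.15, pandas 2.3.3 and matplotlib 3.10.9.

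Replicate numbers were those of the sample titles. The description gives another number for 15 samples, 2 of them among these 11. The numbers pair the samples: deviations from the condition means correlated at 0.398 to 0.752 for the 15 pairs of samples with the same number and at -0.728 to 0.148 for the 30 other pairs, so a fit with the number as a block was run as well.

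Named elements were the 6 called elements with the highest and the 6 with the lowest log2 ratio among those without overlap between the types, for each of 32 genes of the lists the called element with the largest ratio, and for 14 marker genes the tested element nearest the TSS; 1 of these is not reported here. The 15 gene lists, the comparison and the motifs were chosen with earlier results of these data known. Elements of a gene are those to which the deposited annotation assigns it as nearest. Alternatives covered the filter, the ratio and its scale, the block, the trend, voom on the recovered reads, centering, the samples in the fit, equal weights for the SAG concentrations, quantile normalization, a correction for GC content and leaving out each replicate.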

Additional observations from a re-analysis of the deposited data

Results flagged for a closer look

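In 2 of 112 groups of samples examined at the named elements, a sample lay apart from the rest by Dixon's criterion on VST values, which chance alone meets in about 1 group in 20. At the 4930519L02Rik element, p0-1 replicate 3 at 10 nM SAG was the lowest p0-1 sample, with 118 normalized counts. At the Grin2a element, pMN replicate 2 at 500 nM was the lowest pMN sample, with 14.2.

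For 20 of the named elements the difference between pMN and p0-1 changed from day 4 to day 5, by the interaction term of the limma fit at an adjusted p under 0.01. Most of the named elements were chosen by their day 5 values, which enter this term, so a larger difference at day 5 is favored by the choice. The values are the change in the VST difference, pMN minus p0-1, from day 4 to day 5. Among elements higher in pMN it was 2.55 for Mnx1, 2.30 for Lhx4, 2.03 for Lhx3, 1.87 for Slit3, 1.86 for Mir297c, 1.68 for Hhat, 1.67 for Msx1, 1.65 for Elavl3 and 1.11 for Gadd45g. At Olig2 it was 1.47 for the downstream element and 1.16 for the one nearest the TSS. Among elements higher in p0-1 it was -3.66 for Jak2, -2.62 for Atp8b4, -2.48 for 4930519L02Rik, -2.07 for Grin2a, -2.02 for Anxa10, -1.86 for Pax3, -1.70 for Slit2, -1.62 for Bambi and -1.55 for Meis1. At Jak2 the mean of the 6 p0-1 samples was 10.6 normalized counts at day 4 and 388 at day 5.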

How the results depend on the processing

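The 43 named elements that were called kept their direction under every alternative run. Of the 13 that were not, the elements nearest the TSS of Dbx2 and Sp8, with log2 ratios near 0, changed sign under 4 and 5 alternatives. The count of 628 calls lay between 574 and 770 when each replicate was left out in turn, with 414 to 611 higher in pMN and 90 to 188 higher in p0-1. The 90 was reached without p0-1 replicate 3 at 0 nM. Without the filter on the mean, 4811 elements were called (3877 higher in pMN, 934 higher in p0-1), and at a log2 ratio above 1, 3604 (2187 and 1417). With the threshold of 2 set on the VST difference, which compresses ratios at low counts, 75 were higher in p0-1. Quantile normalization gave 449 and 188 and the correction for GC content and level 477 and 153, both chosen after seeing the data. The replicate block gave 628, voom 626 and centering 655 (528 and 127).

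Calls between 0 and 100, 0 and 500, 10 and 100, and 10 and 500 nM were 4293, 2879, 3008 and 2692 at a log2 ratio above 1 and 6548, 5594, 4348 and 4206 without the filter. Leaving out replicates gave 877 to 1323, 125 to 1032, 402 to 727 and 528 to 616. A condition left with 1 sample is assumed to vary like the others. Between 10 and 0 nM within p0-1 the count was 366 with the replicate block and 20 to 123 without a replicate, lowest without p0-1 replicate 1 at 10 nM (20) and replicate 3 (27). Between 500 and 100 nM within pMN it was 3 with the replicate block and 0 to 0 without a replicate. For the change from day 4 to day 5, 6097 passed without the filter, 1993 with the replicate block and 813 to 1172 without a replicate. From day 5 to day 6, 1 passed without the filter and 0 to 1 without a replicate (1 without p0-1 replicate 3 at 0 nM). The replicate block changed no other call by over 1.5 times.

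Wnt3a, Meis1, Olig3 and Msx1 lay near the limit of a ratio of 4 and lost their call under some alternatives, Wnt3a with voom and without p0-1 replicate 3 at 0 nM (log2 ratio -1.71). Of pMN at 500 nM only 2 replicates were analysed, which limits comparisons of that condition.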
